A study of Homo sapiens with 2 samples.

Results

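The genes described here were the DNA methylation writers and erasers, 8 of the 19821 protein-coding genes that were placed on the genome: the methyltransferases DNMT1, DNMT3A and DNMT3B, the cofactors DNMT3L and UHRF1, and the dioxygenases TET1, TET2 and TET3. They were chosen by name. For each of them the CpG sites within 1500 bp upstream and 500 bp downstream of every protein-coding transcript start (the promoter blocks, with overlapping windows of 1 gene joined) and in the rest of the gene (the gene body) were compared between an acute myeloid leukemia cell line and its derivative with the leukemia fusion silenced. The members had 16 promoter blocks and 8 gene bodies, and 14 blocks and all 8 bodies held at least 5 measured sites.

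DNA methylation in mammals is a balance between enzymes that add and enzymes that remove the methyl group on the cytosine of CpG dinucleotides. DNMT3A and DNMT3B place new methyl groups, DNMT3L stimulates them without being active itself, and DNMT1, brought to newly replicated DNA by UHRF1, copies the pattern to the daughter strand. The TET enzymes oxidize 5-methylcytosine, which starts its removal. DNMT3A and TET2 are among the genes most often mutated in myeloid leukemia. Promoters of active genes in CpG-rich DNA are usually free of methylation, whereas gene bodies are usually methylated.

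The study asked how the fusion protein RUNX1-RUNX1T1 (also AML1-ETO) bears on DNA methylation. One group was SKNO-1, a line of t(8;21) acute myeloid leukemia that carries the fusion, without further treatment. The other was SKNO1-siAE, which is SKNO-1 infected with a lentivirus (pRRLcPPT.hPGK) that encodes siAGF1 oligonucleotides against the junction of the fusion mRNA. Both grew in the same medium with fetal calf serum. Each line was represented by 1 library, no line with an empty vector was analysed here, and expression was not measured in these files, so that silencing of the fusion could not be checked and the effects of silencing, vector, passage and library cannot be told apart.

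The libraries were made by methylC-capture sequencing (MCC-Seq), in which bisulfite turns unmethylated cytosine into a base read as thymine and probes then pull down the converted DNA of chosen regions. SKNO-1 had 4713346 measured cytosines and SKNO1-siAE had 4694016, with 83620068 and 82164216 reads on them. Compared were the 3168726 cytosines that both libraries covered with 5 or more reads (median depth 16 and 15), and the methylation level of a site is its methylated reads over all its reads, from 0 to 1. SKNO-1 averaged 0.587 over these sites and SKNO1-siAE averaged 0.655, and 0.351% and 0.378% of reads on mitochondrial DNA were methylated. The promoter blocks at the canonical starts of 4 T cell markers were methylated in both libraries (0.679 to 0.749 in SKNO-1 and 0.752 to 0.867 in SKNO1-siAE), and those of 7 measured myeloid markers ranged from 0 to 0.824 and from 0 to 0.403, in no common direction. The neutrophil protease genes ELANE (0.824 and 0.141) and PRTN3 (0.351 and 0.00987) were higher in SKNO-1, CD33 (0.217 and 0.403) and MPO (0 and 0.13 over 5 sites) were lower, and SPI1 (0.315 and 0.329), CSF3R (0.333 and 0.324) and AZU1 (0.0296 and 0) lay closer together. The B cell markers ranged from 0.495 to 0.997 and from 0.496 to 0.917, and the epithelial markers from 0.50 to 0.879 and from 0.668 to 0.975. Intervals given below are 95% Wilson intervals of pooled reads. Where a block or region is given by its reads and none was methylated, the share that a count of 0 allows is given instead. It is 3 reads over the total, a limit somewhat below the upper Wilson bound. Both count a read once at each site it covers, and no molecular identifiers are described. Neighbouring sites share reads, so both are too narrow even for counting error. Neither covers the spread between libraries.

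The 4 stretches of hg19 DNA in which the libraries parted most sharply by the region test, a further 3 near transcript starts and 1 contrast are shown as read on the strand of the gene, 5′ to 3′. Capitals mark the CpG dinucleotides that lie whole within a stretch. Methylation was counted only at CpG cytosines, and in the stretches of TET3 and DNMT3A a CpG cut by an edge (the first g of both TET3 upstream stretches and both DNMT3A stretches, and the last c of TET3 exon 2) was counted as well. The first 5 were less methylated in SKNO-1 than in SKNO1-siAE, the next 2 had more methylation in SKNO-1, and the last, upstream of DNMT1, was nearly free of methylation in both. For TET1 and UHRF1 the 300 bases with the most sites of a longer region are given, and likewise for the DNMT3A stretch in intron 6.
TET1 intron 1, chr10:70321661-70321960, plus strand: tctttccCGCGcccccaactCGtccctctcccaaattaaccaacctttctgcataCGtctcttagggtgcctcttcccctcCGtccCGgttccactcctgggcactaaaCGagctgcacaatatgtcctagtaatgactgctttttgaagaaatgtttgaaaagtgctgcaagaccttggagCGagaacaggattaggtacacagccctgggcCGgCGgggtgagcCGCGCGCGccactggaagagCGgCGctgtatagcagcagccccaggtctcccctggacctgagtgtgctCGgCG
UHRF1 intron 2, chr19:4916532-4916831, plus strand: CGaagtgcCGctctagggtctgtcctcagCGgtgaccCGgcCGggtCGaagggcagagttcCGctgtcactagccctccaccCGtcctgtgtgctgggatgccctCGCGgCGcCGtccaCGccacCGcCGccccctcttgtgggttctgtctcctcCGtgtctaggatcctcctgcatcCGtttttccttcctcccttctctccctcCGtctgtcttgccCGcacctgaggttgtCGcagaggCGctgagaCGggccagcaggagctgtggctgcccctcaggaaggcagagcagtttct
TET3 upstream of the canonical start, chr2:74211365-74211513, plus strand: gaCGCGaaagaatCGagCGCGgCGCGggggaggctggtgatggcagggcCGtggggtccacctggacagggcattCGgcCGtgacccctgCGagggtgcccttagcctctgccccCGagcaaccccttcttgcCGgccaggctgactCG
TET3 upstream of the TET3-201 start, chr2:74229538-74229758, plus strand: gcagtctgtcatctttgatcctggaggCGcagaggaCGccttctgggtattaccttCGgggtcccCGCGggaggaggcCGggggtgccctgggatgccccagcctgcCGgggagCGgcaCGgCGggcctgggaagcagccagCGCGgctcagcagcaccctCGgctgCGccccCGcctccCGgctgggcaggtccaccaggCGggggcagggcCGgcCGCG
DNMT3A intron 6, chr2:25473666-25473965, minus strand: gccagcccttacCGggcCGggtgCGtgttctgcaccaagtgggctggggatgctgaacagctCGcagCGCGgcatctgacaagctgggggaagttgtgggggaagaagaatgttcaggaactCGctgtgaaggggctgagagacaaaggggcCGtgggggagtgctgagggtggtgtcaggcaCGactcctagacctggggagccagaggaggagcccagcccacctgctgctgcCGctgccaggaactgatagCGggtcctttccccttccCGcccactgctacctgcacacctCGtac
DNMT3A intron 1, chr2:25563433-25563588, minus strand: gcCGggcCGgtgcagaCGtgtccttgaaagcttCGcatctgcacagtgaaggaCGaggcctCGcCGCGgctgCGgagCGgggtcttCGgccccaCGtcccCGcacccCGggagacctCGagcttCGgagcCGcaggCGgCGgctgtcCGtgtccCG
TET3 exon 2 and the start of intron 2, chr2:74213663-74213888, plus strand: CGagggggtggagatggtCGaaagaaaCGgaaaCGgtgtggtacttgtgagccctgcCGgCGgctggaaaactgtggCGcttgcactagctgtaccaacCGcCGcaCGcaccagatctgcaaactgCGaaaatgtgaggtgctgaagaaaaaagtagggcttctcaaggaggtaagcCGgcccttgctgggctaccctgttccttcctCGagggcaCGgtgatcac
DNMT1 upstream, chr19:10305812-10306061, minus strand: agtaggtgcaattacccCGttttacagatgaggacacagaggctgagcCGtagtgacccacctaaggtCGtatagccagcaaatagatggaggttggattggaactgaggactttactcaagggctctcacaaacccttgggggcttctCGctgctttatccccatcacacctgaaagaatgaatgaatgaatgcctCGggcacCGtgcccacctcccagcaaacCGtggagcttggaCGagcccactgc
The TET1 stretch held 18 CpGs in 300 bases, and its 36 measured sites averaged 0 for SKNO-1 and 0.974 for SKNO1-siAE. The DNMT3A stretch in intron 1 was denser, with 21 CpGs in 156 bases, and stood at 0.890 and 0.0455. The DNMT1 stretch held 8 CpGs in 250 bases, and its 15 sites stood at 0.0154 and 0.0911.

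Most promoter blocks of the writers and erasers did not differ between the libraries by 0.2 or more, and those that did were all less methylated in SKNO-1. Of the 14 blocks, 4 had a mean level at least 0.2 lower in SKNO-1 (2 of TET3 and 2 of DNMT3A) and 0 had one at least 0.2 higher, beside 15.1% lower and 3.35% higher among the 23347 blocks of all protein-coding genes. The median difference, SKNO-1 minus SKNO1-siAE, was -0.02 over the members' blocks and -0.01 over all blocks. 5 of the 14 blocks were below 0.1 in both libraries, beside 6396 of the 23347 blocks of all protein-coding genes. By site, 71 of the 593 sites in the members' blocks were lower in SKNO-1 (12.0%) and 10 were higher (1.69%), by Fisher's exact test (adjusted p under 0.05 after Benjamini-Hochberg correction across the genome's shared sites, and levels 0.2 or more apart). Over the promoter blocks of all protein-coding genes 10.4% of sites were lower and 3.91% higher, and over all shared sites 11.7% and 4.4%. The members' share of lower sites was thus close to the background. This test compares 2 libraries, not conditions.

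**Figure D1:**
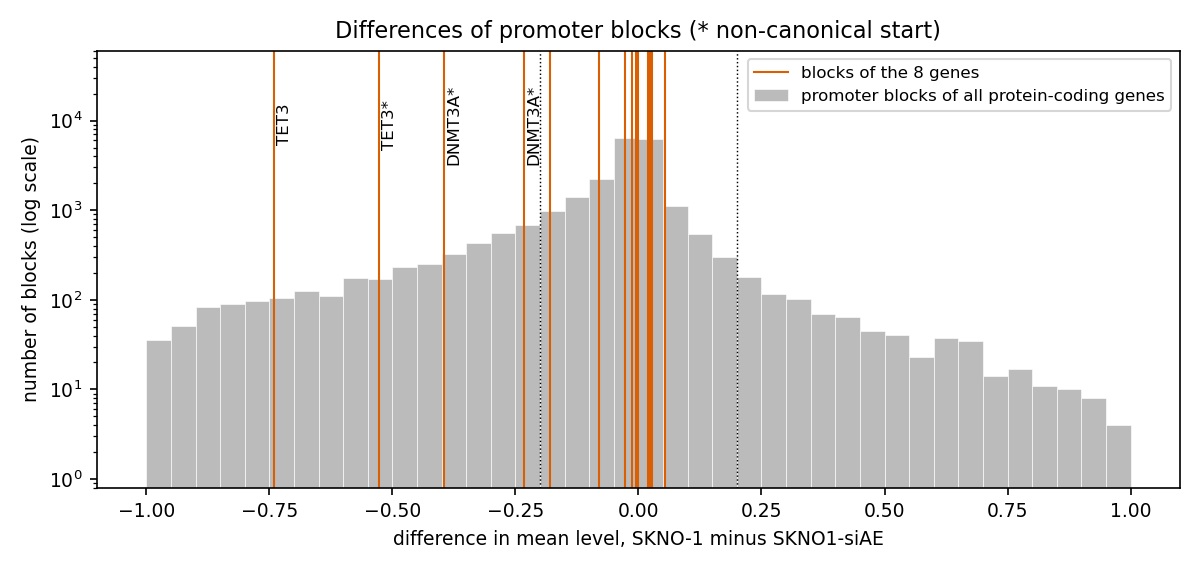
Histogram of the difference in mean methylation level (x axis, SKNO-1 minus SKNO1-siAE) over the 23347 promoter blocks of all protein-coding genes (y axis, number of blocks on a log scale), with an orange line at each of the 14 blocks of the members and dotted lines at a difference of 0.2 either way. The 4 named lines, 2 of TET3 and 2 of DNMT3A, lie to the left of the lower dotted line, and the other 10 lie between the dotted lines.

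The gene bodies were mostly methylated in both libraries, and 6 of the 8 differed by less than 0.2. TET1 and DNMT3B had bodies at least 0.2 lower in SKNO-1 and 0 bodies were at least 0.2 higher, beside 10.8% and 2.49% of the 16892 bodies of all protein-coding genes. The median difference was 0.00 over the members and -0.02 over all bodies. Of the 1638 body sites of the members 194 were lower in SKNO-1 (11.8%) and 79 higher (4.82%) by the same test, beside 10.7% and 4.61% of the body sites of all genes. Of these, 118 of the 194 lower sites and 36 of the 79 higher sites lay within 4 short regions, which are described gene by gene below.

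These regions came from a search for runs of 5 sites or more, with gaps up to 300 bp, that differed by at least 0.2 in 1 direction. The search gave 50612 candidate regions genome-wide, of which 4.75% were called lower and 1.05% higher in SKNO-1 by a Mann-Whitney U test of the site levels (Bonferroni-adjusted over all 3168726 shared sites), which serves here to rank regions. The members held 27 candidates, 17 lower and 10 higher. 2 were called lower, in TET1 and UHRF1, and 2 higher, in DNMT3A and TET3. With this strict adjustment a run of fewer than 17 sites could not be called whatever its difference. By it 9 further candidates differed by at least 0.5 without being called. Adjusted over the 50612 candidates instead, the same 4 regions and 1 more, upstream of a TET3 start, were called, among 4110 called genome-wide. With at least 10 reads per site only the TET1 region was called, among 1474 genome-wide.

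TET1, the first of the TET enzymes and one that carries a CXXC zinc finger for CpG-rich DNA, had the longest called region of the members. Around its only protein-coding start (chr10:70318594-70320594) the 79 sites averaged 0.0296 in SKNO-1 and 0.0577 in SKNO1-siAE, or 78 of 1257 reads and 81 of 1276 reads. Both libraries were thus nearly unmethylated at the start itself, and in the 500 bp after the start the 58 sites averaged 0 and 0.00565. From 1150 to 2781 bp downstream of the start (chr10:70321244-70322875, inside intron 1) the picture changed. There SKNO-1 had 15 methylated of 1619 reads (a share of 0.00926, interval 0.00562 to 0.0152) and SKNO1-siAE had 2245 of 2337 (0.961, interval 0.952 to 0.968). The 80 site levels ran from 0 to 0.467 in SKNO-1 and from 0.667 to 1 in SKNO1-siAE, with no overlap. The mean difference was -0.95, the Bonferroni p of the Mann-Whitney U test was 1.26e-25, and 79 of the 80 sites were lower in SKNO-1 by Fisher's exact test. The sites of the plus strand (32) differed by -0.92 and those of the minus strand (48) by -0.97. The site with the smallest adjusted p, 1498 bp downstream of the start, had 0 of 51 methylated reads in SKNO-1 and 56 of 57 in SKNO1-siAE (adjusted p = 3.21e-27, Fisher's exact test).

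**Figure D2:**
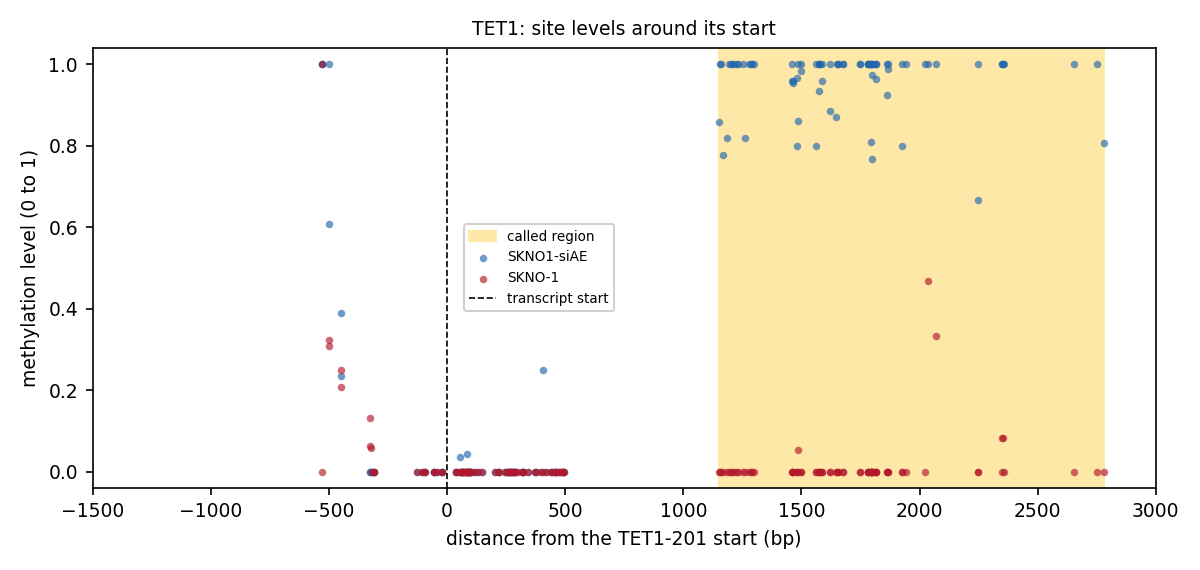
Methylation level of each shared site of TET1 (y axis, 0 to 1) against its distance from the transcript start in bp (x axis), in SKNO-1 (red) and SKNO1-siAE (blue), with the called region shaded and the start dashed. Both libraries lie near 0 just after the start, and within the shaded region the SKNO1-siAE sites lie between 0.667 and 1 and the SKNO-1 sites between 0 and 0.467.

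The TET1 body as a whole stood at 0.308 in SKNO-1 and 0.859 in SKNO1-siAE over 138 sites, the largest body difference of the members at -0.55 and the 0.98 percentile of all bodies. All 79 lower sites of the body were in the region. Upstream, a short run of 5 sites from 530 to 449 bp before the start averaged 0.376 and 0.799 and was not called. In the block the site with the smallest adjusted p, 530 bp upstream, had 0 of 19 methylated reads in SKNO-1 and 9 of 9 in SKNO1-siAE (adjusted p = 3.86e-06, Fisher's exact test).

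TET3, a TET enzyme whose longer form also carries a CXXC zinc finger, had the largest promoter differences of the members over all shared sites. At the canonical start (TET3-202, 1795 codons, chr2:74210537-74212537) 28 sites averaged 0.0923 in SKNO-1 and 0.832 in SKNO1-siAE, with 31 of 439 and 430 of 487 reads methylated, and the difference of -0.74 stood at the 1.61 percentile of all blocks. 22 of the 28 sites were lower in SKNO-1 by Fisher's exact test and 0 higher. The sites fell in 2 runs, 1233 to 1040 bp and 672 to 524 bp upstream of the start, at 0.188 against 0.918 and 0.00909 against 0.758. All of them were cytosines of the minus strand, and no shared site lay between the nearer run and the end of the block, so that the start itself was not measured. The reads per site in SKNO-1 were 0.377 times those in SKNO1-siAE in the farther run and 2.44 times in the nearer one after scaling to the library totals. Neither run reached the 17 sites a call needs. Over the own sites of each library, without the need for reads in both, the difference of the block was -0.45.

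The shorter transcript TET3-201 (1702 codons) starts in intron 2. Its block (chr2:74228340-74230340) averaged 0.416 in SKNO-1 and 0.942 in SKNO1-siAE over 33 sites, a difference of -0.53, with 19 sites lower and 0 higher. By strand the difference was -0.08 on the plus strand (12 sites) and -0.78 on the minus strand (21 sites). The run of 19 sites from 302 to 82 bp before this start stood at 0.0574 and 0.922, with 12 of 249 methylated reads (interval 0.0278 to 0.0823) and 281 of 301 (interval 0.90 to 0.957). Its Bonferroni p was 0.0743 over all shared sites, by which it was not called, and 0.00119 over the candidate regions, by which it was. All 19 sites were on the minus strand. The site with the smallest adjusted p among both TET3 blocks lay here, with 0 of 16 and 25 of 25 methylated reads (adjusted p = 6.78e-10, Fisher's exact test).

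Inside the gene the direction turned. From 1626 to 1851 bp downstream of the canonical start (chr2:74213663-74213888), over the coding end of exon 2, which only TET3-202 uses, and the first bases of intron 2, SKNO-1 had 362 methylated of 447 reads (0.810, interval 0.771 to 0.844) and 71 of 348 in SKNO1-siAE (0.204, interval 0.165 to 0.249). The 26 sites averaged 0.784 and 0.153, the difference of 0.63 was called with a Bonferroni p of 0.0342, and 18 sites were higher in SKNO-1 and 0 lower. Both strands showed it, at 0.59 (15 sites) and 0.69 (11 sites). A further 13 sites from 2500 to 2999 bp downstream had a level of 0 in both libraries. The whole TET3 body averaged 0.857 and 0.787 over 236 sites, with 22 higher and 5 lower sites.

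**Figure D3:**
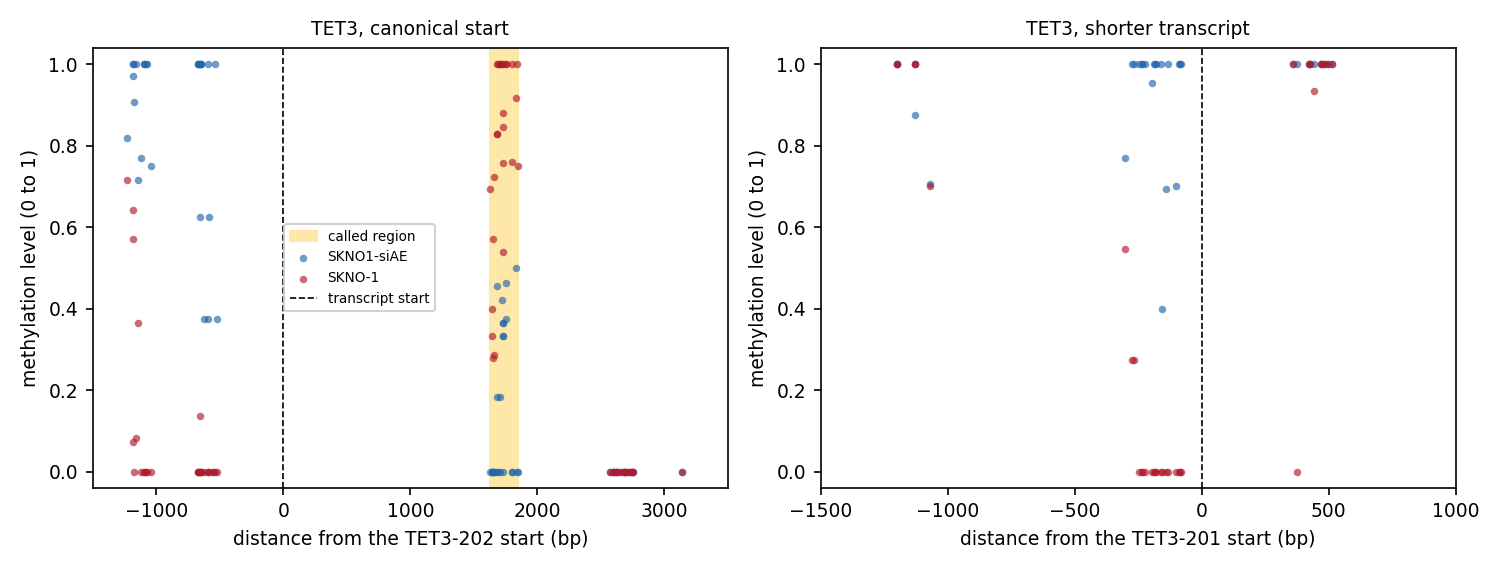
Methylation level of each shared site of TET3 (y axis, 0 to 1) against the distance in bp (x axis) from the canonical start (left) and from the start of the shorter transcript TET3-201 (right), in SKNO-1 (red) and SKNO1-siAE (blue), with the called region shaded. The SKNO-1 sites lie mostly at 0 upstream of both starts, where SKNO1-siAE sites are mostly above 0.6, and the order is turned in the shaded region.

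TET2, which lacks a CXXC domain of its own, was nearly unmethylated at its starts in both libraries. Its block (chr4:106065532-106069114), which joins 5 starts, had 0 of 969 methylated reads in SKNO-1, which allows a share of up to 0.00310, and 10 of 868 in SKNO1-siAE (0.0115, interval 0.00627 to 0.0211). Over the 60 sites the means were 0 and 0.00534, and 0 sites were called. The body held only 23 shared sites at 0.70 and 0.688. 1 of them was higher in SKNO-1, with 24 of 24 and 19 of 44 methylated reads (adjusted p = 1.46e-05, Fisher's exact test), and 0 were lower.

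DNMT3A, the de novo methyltransferase most often mutated in myeloid leukemia, differed in both directions along the gene. The block of its canonical start (DNMT3A-202, 912 codons, chr2:25564294-25566959) averaged 0.229 in SKNO-1 and 0.20 in SKNO1-siAE over 55 sites, and the shared site nearest to the canonical start lay 415 bp from it. Downstream of it, 1206 to 1361 bp into the gene (chr2:25563433-25563588, intron 1), SKNO-1 had 416 methylated of 470 reads (0.885, interval 0.853 to 0.911) and 9 of 196 in SKNO1-siAE (0.0459, interval 0.0243 to 0.0850). The 22 sites averaged 0.890 and 0.0455, a difference of 0.84, and 18 of them were higher in SKNO-1. As a region they were called by the Mann-Whitney U test with a Bonferroni p of 0.00607. All 22 were on the plus strand, and the reads per site were 2.35 times as many in SKNO-1 after scaling. A second run with more methylation in SKNO-1 lay in intron 2 (chr2:25527095-25527415), where 16 sites averaged 0.903 and 0.158, from 422 of 460 and 48 of 255 reads. It had too few sites to be called.

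The shorter DNMT3A transcripts begin in and near intron 6, and there SKNO-1 had less methylation. The block of DNMT3A-217, DNMT3A-203 and DNMT3A-205 (689 or 723 codons, chr2:25474501-25476680) averaged 0.704 and 0.938 over 31 sites, a difference of -0.23 with 8 sites lower and 2 higher. This value rested on a run of 8 sites just after the starts (chr2:25474597-25474789), where SKNO-1 had 0 methylated of 98 reads, which allows a share of up to 0.0306, and 68 of 68 in SKNO1-siAE. Upstream of the starts most sites were methylated in both libraries, and counted over the 1500 bp upstream alone the difference was 0.03. With at least 10 reads per site it was -0.04, over pooled reads -0.11 and over sites of matched depth -0.80. The site of this block with the smallest adjusted p went the other way, with 50 of 51 methylated reads in SKNO-1 and 1 of 15 in SKNO1-siAE (adjusted p = 2.22e-10, Fisher's exact test). The block of DNMT3A-209 (chr2:25472072-25474072) averaged 0.566 and 0.962 over 28 sites, a difference of -0.40 with 11 sites lower and 1 higher, which was -0.21 over pooled reads and -0.66 at matched depth. Within it a run of 13 sites (chr2:25473551-25473965) had 8 of 100 and 127 of 130 methylated reads. In the DNMT3A body 34 of 321 sites were higher and 17 lower, and its mean was 0.897 and 0.833. The body site with the smallest adjusted p had 3 of 21 and 56 of 56 methylated reads (adjusted p = 1.04e-12, Fisher's exact test).

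DNMT3B, the other de novo methyltransferase, was unmethylated just after its canonical start in both libraries and less methylated in SKNO-1 on either side. In the 500 bp after the start 32 sites had a mean of 0 in both. In the 500 bp before it 10 sites averaged 0.17 in SKNO-1 and 0.864 in SKNO1-siAE, and from 500 to 999 bp after it 24 sites averaged 0.0443 and 0.462. The whole block (chr20:31348691-31350948) averaged 0.0851 and 0.264 over 48 sites, a difference of -0.18 with 6 sites lower and 0 higher. That is just under 0.2, and with at least 10 reads per site it was -0.33. From 901 to 1072 bp downstream (chr20:31351092-31351263, intron 1) SKNO-1 had 22 methylated of 432 reads and 312 of 486 in SKNO1-siAE. The 27 sites averaged 0.0672 and 0.596, with 18 lower and 0 higher, and were not called as a region. The strands were not alike here, at -0.15 on the plus strand (8 sites) and -0.69 on the minus strand (19 sites). This run held the site with the smallest adjusted p of the body, with 0 of 24 and 25 of 28 methylated reads (adjusted p = 4.97e-10, Fisher's exact test). The DNMT3B body averaged 0.583 and 0.794 over 81 sites, a difference of -0.21 with 20 sites lower and 0 higher. It was -0.13 over pooled reads, but -0.31 with at least 10 reads or with merged strands and -0.38 at matched depth. In the block of the DNMT3B-201 start 0 of 71 and 0 of 50 reads on 5 sites were methylated, which allows shares of up to 0.0423 and 0.0600. When the strands of each CpG were merged, 9 CpGs of this block could be compared, and they averaged 0.167 and 0.481, a difference of -0.31, so that the 5 sites do not describe the whole block.

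DNMT3L, the inactive cofactor, was methylated in both libraries upstream of its starts and over most of its body. Its block (chr21:45681265-45683599) had few CpGs and 12 shared sites, all upstream and none nearer than 1319 bp to the canonical start, so that the start itself was not measured. They averaged 0.901 in SKNO-1 and 0.882 in SKNO1-siAE with 0 sites called. The 72 body sites averaged 0.711 and 0.707, with 5 lower and 2 higher. Low levels were measured in intron 10, where 5 sites (chr21:45669255-45669262) averaged 0.20 and 0 and 6 neighbouring sites (chr21:45669282-45669334) averaged 0.42 and 0.0729. The body site with the smallest adjusted p had 16 of 31 and 30 of 30 methylated reads (adjusted p = 0.000109, Fisher's exact test).

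**Figure D4:**
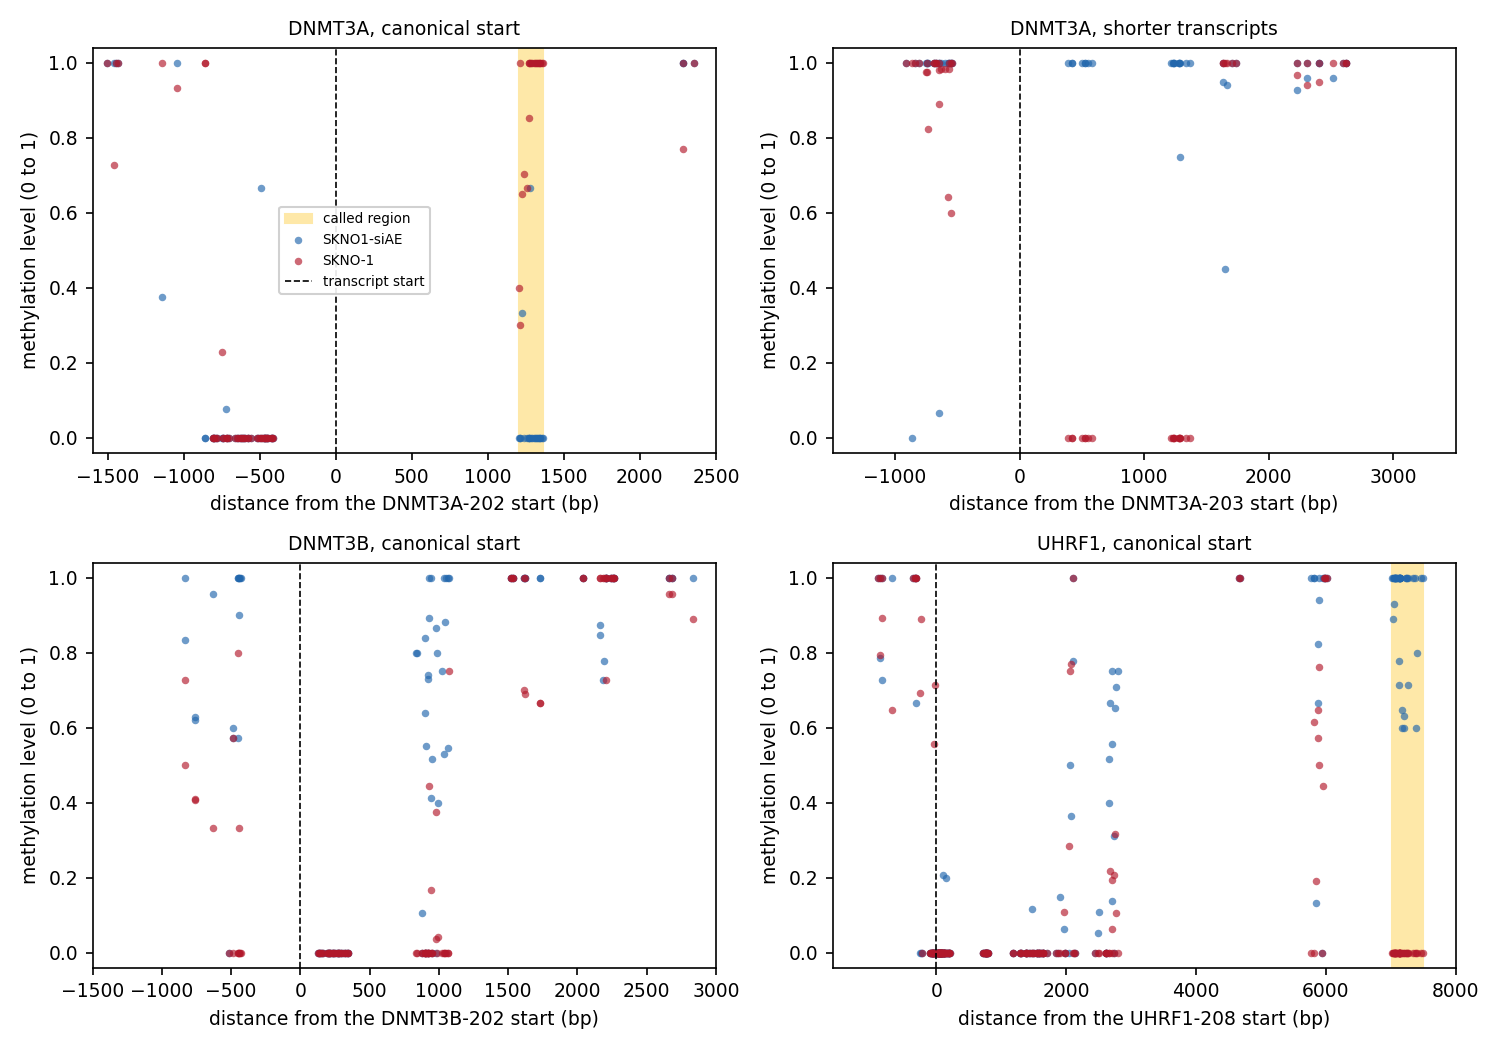
Methylation level of each shared site (y axis, 0 to 1) against distance in bp (x axis) from the canonical start of DNMT3A, from the DNMT3A-203 start of its shorter transcripts, and from the canonical starts of DNMT3B and UHRF1, in SKNO-1 (red) and SKNO1-siAE (blue), with called regions shaded. SKNO-1 is the higher library in the shaded region of DNMT3A and the lower one after the DNMT3A-203 start, on both sides of the DNMT3B start and in the shaded region of UHRF1.

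DNMT1, the maintenance methyltransferase, differed little on average at its canonical start and in its body. The block of its canonical start (chr19:10304802-10307311) had 6 of 1013 methylated reads in SKNO-1 (0.00592, interval 0.00272 to 0.0129) and 19 of 1080 in SKNO1-siAE (0.0176, interval 0.0113 to 0.0273). The 70 site means were 0.00568 and 0.0195, and 1 site was called, with 0 of 48 and 2 of 5 methylated reads (adjusted p = 0.0447, Fisher's exact test). The body averaged 0.889 and 0.887 over 213 sites, with 5 higher and 3 lower. Its most clearly separated site had 33 of 33 and 12 of 24 methylated reads (adjusted p = 6.89e-05, Fisher's exact test). A run of 7 body sites (chr19:10340877-10340923) averaged 0.435 in SKNO-1 and 0.882 in SKNO1-siAE, with 2 sites lower, and was not called. The starts of DNMT1-226 and DNMT1-215 lie far upstream, beside S1PR2, and the 8 sites of their joined block averaged 0.0536 and 0. The blocks of DNMT1-221 and of DNMT1-213 with DNMT1-209 had 0 shared sites.

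UHRF1, the partner that reads hemimethylated CpGs for DNMT1, was low at its canonical start in both libraries but parted inside the gene. The block that joins 6 starts (chr19:4907942-4910887) averaged 0.117 in SKNO-1 and 0.0937 in SKNO1-siAE over 113 sites, with 4 sites higher and 0 lower. In the 500 bp after the start the 55 sites averaged 0 and 0.00742. In intron 2, from 7019 to 7497 bp downstream (chr19:4916532-4917010), SKNO-1 had 0 methylated of 424 reads, which allows a share of up to 0.00708, and 470 of 507 in SKNO1-siAE (0.927, interval 0.901 to 0.947). All 42 sites had a level of 0 in SKNO-1 and of 0.600 to 1 in SKNO1-siAE, and 39 were lower by Fisher's exact test (Bonferroni p of the region = 1.22e-11). The strands differed by -0.91 (17 plus sites) and -0.94 (25 minus sites). One of its sites had 0 of 12 and 21 of 21 methylated reads (adjusted p = 1.14e-07, Fisher's exact test), the smallest adjusted p of the body. The body averaged 0.768 and 0.858 over 554 sites, with 65 lower and 14 higher. The upstream start UHRF1-201 had a methylated block (0.90 and 0.979 over 23 sites), where 1 site had 15 of 23 and 44 of 44 methylated reads (adjusted p = 0.000912, Fisher's exact test).

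CpG islands were drawn after these values were seen. They join overlapping 500 bp windows with at least 55% G and C and an observed over expected CpG ratio of at least 0.65. A joined island as a whole can fall below these limits. The members held 23, of which 18 had at least 5 shared sites. 4 of the 18 were lower in SKNO-1 by at least 0.2 (TET1, UHRF1 and 2 of TET3) and 1 higher (DNMT3A), beside 13.3% and 2.68% of the 20527 islands of all protein-coding genes. The TET1 island, from 213 bp before to 1725 bp after the start, averaged 0.000491 in SKNO-1 and 0.377 in SKNO1-siAE over 110 sites, which joins the unmethylated start to the first part of the called region. The island at the canonical start of DNMT3A averaged 0.330 and 0.0264 over 66 sites, with 21 higher and 0 lower. Of these 21 sites, 18 were those of the called region in intron 1, and the island differed by 0.59 on the plus strand and 0.01 on the minus strand. Away from promoter blocks, 7 of 8 islands were above 0.85 in both libraries, and the eighth, in intron 2 of UHRF1, stood at 0 and 0.931.

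The strands of a CpG gave a measure of the spread within a library. Over the 672 CpGs of the members with both strands measured in both libraries, the levels of the strands differed by 0.0702 on average in SKNO-1 and 0.0738 in SKNO1-siAE, and the libraries differed by 0.159 on the plus and 0.154 on the minus strand. For TET1 (70 CpGs) the strand differences were 0.0352 and 0.0603 and the library differences 0.427 and 0.411, whereas for DNMT1 (81 CpGs) they were 0.0470 and 0.0639 against 0.0522 and 0.0502. For DNMT3L (20 CpGs) the strand differences of 0.172 and 0.0784 stood beside library differences of 0.168 and 0.160. For DNMT3B (39 CpGs) 0.110 and 0.183 stood beside 0.151 and 0.285, and for TET2 (21 CpGs) 0.0138 and 0.0385 beside 0.0334 and 0.0142. In DNMT3L, DNMT3B, TET2 and DNMT1 the strands of 1 library thus differed on average by more than the libraries did on the plus strand. At 49 CpGs both strands were lower in SKNO-1 by at least 0.5, 28 of them in TET1 and 14 in UHRF1. At least 1 strand was lower by that much at 77 CpGs. At 9 CpGs both strands were higher, and at 27 at least 1 was. At 0 did the strands part by that much in opposite directions. These counts were made over the members only, with no share over all genes. The runs upstream of TET3 and in intron 1 of DNMT3A, measured on 1 strand only, are not among the 672 CpGs.

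Of 55 other genes of DNA methylation (readers, maintenance and targeting partners, demethylation partners and methyl donor supply), 52 had a promoter block with at least 5 sites. Of their 74 such blocks 5 were lower in SKNO-1 by at least 0.2 (6.76%) and 1 higher (1.35%), below the background of all blocks given above for both directions, and the median difference was 0.00. The lower blocks belonged to 2 zinc finger proteins that bind methylated DNA, ZBTB4 (0.126 in SKNO-1 and 0.955 in SKNO1-siAE over 53 sites) and ZBTB38 (0.311 and 0.899 over 39 sites, at non-canonical starts), to AHCY (0.285 and 0.616 at its AHCY-205 start), which clears the product of methyl transfer, and to the DNA glycosylases NEIL2 (0.243 and 0.513) and NEIL1 (0.747 and 0.986). The higher block was that of WT1 (0.377 and 0.0339 over 128 sites), a transcription factor that recruits TET2. By list, 2 of 17 blocks of readers, 0 of 29 of maintenance and targeting partners, 2 of 17 of demethylation partners and 1 of 11 of methyl donor supply were lower.

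TGTGGT is 1 form of the core through which the RUNX1 part of the fusion binds DNA, and it was the only form searched. This core, searched on both strands (as TGTGGT or ACCACA, which do not overlap each other) from 1500 bp upstream to 500 bp downstream of the canonical start, occurred 2 times in TET1, DNMT3B and UHRF1, 1 time in TET2 and DNMT3L and 0 times in TET3, DNMT3A and DNMT1. It occurred at least once in 62.8% of the 19540 such windows of protein-coding genes. The match of these letters is not a measure of binding, which was not analysed here.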

How the data were processed

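What was measured were methylated and unmethylated read counts per CpG cytosine in 1 library of SKNO-1 and 1 of SKNO1-siAE. The authors deposited these counts without normalization, after cutadapt 1.4.2 and BSMAP 2.73 (per the submitters' processing notes) on hg19, and only sites with at least 5 reads. All 3167928 shared nuclear sites lay on a CpG cytosine of GRCh37. Genes came from GENCODE release 44 lifted to GRCh37, canonical starts from its tags.

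The level of a block is the mean of its site levels. Sites were tested with the 2-sided Fisher's exact test (Benjamini-Hochberg over all shared sites, adjusted p under 0.05, difference of at least 0.2), and regions with the Mann-Whitney U test (normal approximation, differences smoothed over 5 sites) in place of the authors' Metilene. Site and region calling was tested on simulated data. The members, lists and tests were chosen with earlier results of these data known. Named were all blocks and bodies, called regions and, per member, the called site with the smallest adjusted p in blocks and in the body. Of other DNA methylation genes, those with a block past 0.2 were named. Uncalled runs, islands, ELANE and PRTN3 were named after their values were seen. The shown stretches were read from GRCh37. Python 3.11.15, numpy 2.4.6, pandas 2.3.3, scipy 1.17.1, numba 0.67.0 and pysam 0.24.0 were used.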

Additional observations from a re-analysis of the deposited data

How the results depend on the processing

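No paired analysis was possible because each cell line had 1 library. The number of member blocks at least 0.2 lower in SKNO-1 (4 of 14) was 4 of 11 with at least 10 reads, 4 of 14 with pooled reads or the upstream interval, 5 of 14 with merged strands or own sites and 3 of 9 at matched depth, but not always of the same blocks. With at least 10 reads, pooled reads or the upstream interval the DNMT3A-217 block left and the canonical DNMT3B block entered (-0.33, -0.26 and -0.25). DNMT3B also entered with own sites, and the DNMT3B-201 block with merged strands (-0.31). At matched depth the canonical TET3 block kept too few sites and gave no value. The DNMT3A-217 block reversed to 0.0335 over the upstream interval. Bodies lower by 0.2 fell from 2 to 1 with pooled reads or own sites, and to 0 outside candidate regions, an alternative chosen after seeing the data that leaves out sites because they differ and so lowers the difference by its construction. With at least 10 reads, called promoter sites fell to 4 higher and 32 lower (of 269 sites) and higher body sites to 47 (of 1002). With Bonferroni adjustment, 1 higher and 12 lower promoter sites and 11 higher and 63 lower body sites were called. Of called regions, 0 higher and 1 lower (TET1) were called with at least 10 reads, where 1474 were called genome-wide. When pooled reads were tested by Fisher's exact test, 4 higher and 14 lower were called, and 35849 regions genome-wide. Adjustment over candidate regions, also chosen after seeing the data, gave 2 higher and 3 lower, among 4110 called genome-wide. Of 46 recomputed counts 32 stayed within 1.5 times and 14 did not. Of 123 recomputed differences 58 stayed within the counting interval. In 14 the sign changed, of which 1 (DNMT3A-217) had a main difference of 0.2 or more and the others one of at most 0.0640. At a median of 15 reads a single site is imprecise, and no alternative replaces a second library.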
